A study of Rattus norvegicus with 30 samples.

Results

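The amylin and CGRP receptor genes were examined in bulk RNA-seq of brain tissue from 30 male Sprague Dawley rats on a normal diet, labelled as frontal cortex. The groups were 10 WT rats, which express rat amylin, 10 HIP rats, which express human amylin in pancreatic β-cells, and 10 AKO rats, in which rat amylin is knocked out. The study's methods name the sequenced tissue cerebral cortex, and its results name it hippocampal. The HIP and WT rats were 15 to 16 months old, and no age is tied to the 10 AKO rats sequenced. The study reports that HIP rats develop type-2 diabetes. The members were chosen by symbol, as the receptor subunits Calcr, Calcrl, Ramp1, Ramp2 and Ramp3 and the ligand genes Adm, Calca and Calcb, from a table of normalized read counts of 17134 genes. Of these 8 genes, 4 had a row, which were Calcrl (ENSRNOG00000054695), Ramp3 (ENSRNOG00000053766), Adm (ENSRNOG00000027030) and Calca (ENSRNOG00000011130). Calcr, Ramp1, Ramp2 and Calcb were not matched by symbol, synonym or identifier and were not analysed here. Iapp, the amylin gene, was not matched either, so the genotype labels were not checked against the targeted gene.

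Amylin and calcitonin gene-related peptide (CGRP) belong to a family of peptide hormones that also holds calcitonin and adrenomedullin. Their receptors are class B G protein-coupled receptors paired with a small accessory protein, a RAMP, which sets the ligand preference. The calcitonin receptor encoded by Calcr forms amylin receptors with any of the RAMPs. The calcitonin receptor-like receptor encoded by Calcrl forms the CGRP receptor with RAMP1 and adrenomedullin receptors with RAMP2 or RAMP3. In brain, Calcrl and Adm transcripts are known from blood vessels, and Ramp3 is shared between the amylin and the adrenomedullin receptor systems. Calca encodes both calcitonin and CGRP, by alternative splicing, and a count per gene does not separate these products.

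No difference between WT, HIP and AKO rats in Calcrl, Ramp3, Adm or Calca passed the test. Calcrl and Ramp3, which together encode an adrenomedullin receptor, varied in opposite directions from rat to rat in AKO and HIP rats (r = -0.86 and -0.66). In WT rats r was -0.14, and the comparison of these 2 genes was chosen after the values were seen. Adm was highest in 1 AKO rat, 4KAH27, and Calca was the least covered of the 4, with 0 reads in 1 WT rat. The 2 receptor genes also differed in the sequence before their start sites. Whether this relates to their levels was not tested. Both sequences are shown. Each is written 5′ to 3′ on the gene's strand, from 250 bases before to 50 bases after the annotated start, with CG dinucleotides in capitals. The sequences are from RefSeq (GRCr8), at chr3:89932567-89932866 on the minus strand for Calcrl and chr14:85741064-85741363 on the plus strand for Ramp3. The reads were aligned to another build, rn7.

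Calcrl: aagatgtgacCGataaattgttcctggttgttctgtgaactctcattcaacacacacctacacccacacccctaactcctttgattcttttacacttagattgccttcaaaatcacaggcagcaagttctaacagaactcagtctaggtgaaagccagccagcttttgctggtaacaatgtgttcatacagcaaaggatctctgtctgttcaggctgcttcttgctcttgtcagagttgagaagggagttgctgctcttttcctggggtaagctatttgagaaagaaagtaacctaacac
Ramp3: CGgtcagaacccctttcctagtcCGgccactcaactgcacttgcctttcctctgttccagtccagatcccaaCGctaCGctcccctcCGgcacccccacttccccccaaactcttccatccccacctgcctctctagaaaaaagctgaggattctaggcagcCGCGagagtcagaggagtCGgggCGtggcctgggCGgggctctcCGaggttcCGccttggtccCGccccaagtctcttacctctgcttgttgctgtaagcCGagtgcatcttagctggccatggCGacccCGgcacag

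The Calcrl sequence held 1 CG dinucleotide and 43.3% G and C. The Ramp3 sequence held 16 CG dinucleotides and 61.7% G and C. The median over 33469 promoters of the same length was 7 CG dinucleotides, and 5.47% of them had fewer than Calcrl and 69.5% fewer than Ramp3. The Adm and Calca sequences held 8 and 15. The letters of the GC box, GGGCGG, matched at 2 positions in Ramp3 and 1 in Adm on either strand, and 33.1% of all promoters had a match. Calca held 1 match each to CCAAT, present in 37.5% of promoters, and to TGACG, the core of the cAMP response element, present in 21.2%. TATAAA and ACGTG matched none of the 4 sequences, and were present in 14.2% and 19.3% of promoters.

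Reads on genes were estimated from the step whose whole multiples held the largest share of low values in each rat. They were 12.9 to 21.2 M per WT rat, 13.7 to 16.7 M per HIP rat and 12.9 to 23.6 M per AKO rat. By this estimate, 114 to 301 reads per rat fell on Ramp3, 31.0 to 203 on Calcrl, 20 to 84 on Adm and 0 to 35 on Calca. Several libraries stood apart. WT rat 10RT43 had a mean of 4.64 on the log2 scale over the neocortical layer markers, against at least 9.27 in every other rat, and a mean of 13.0 over cerebellum markers, against at most 5.74 in the other 9 WT rats. HIP rat 10RT46 had a mean of 10.2 over pineal markers, against at most 1.54 in the other 9 HIP rats. Choroid plexus means were 9.04 in 10RT46 and 7.01 in AKO rat 7AKO19, against group medians of 2.65 to 3.35. The cerebellum mean of HIP rat 12RT23 was 10.0. The mean over 6 olfactory bulb markers was 9.88 in WT rat 10RT51, 9.66 in WT rat 10RT50, 9.61 in AKO rat 6AKO35, 8.91 in HIP rat 10RT53, 8.66 in HIP rat 10RT49 and 8.28 in AKO rat 4KAH35, against group medians of 4.22 to 5.38. In AKO rats 4KAH35 and 4KAH27 the mean over 4 blood markers was 8.46 and 8.16, against at most 6.04 in WT and HIP rats. Bulb means of 7.05 to 7.37 were found in WT rat 10RT57, AKO rats 6KAH99 and 7AKO28 and HIP rat 10RT37. HIP rat 10RT48 had a mean of 10.1 over microglia markers, against at most 8.96 in the other 9 HIP rats. The highest striatum means were 10.3 in WT rat 10RT55, 10.2 in AKO rat 4KAH27, 9.84 in HIP rat 10RT54 and 9.81 in AKO rat 4KAH35. The group medians of that list were 8.18 to 8.40. Member fits were rerun without each rat in turn and without some sets of these libraries. They are given below where they changed. No fit left out the bulb-rich or the striatum-rich libraries as a set, and pathway genes are given with all rats only. In bulk tissue, fewer cells of a type and less RNA per cell cannot be told apart.

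**Figure D1:**
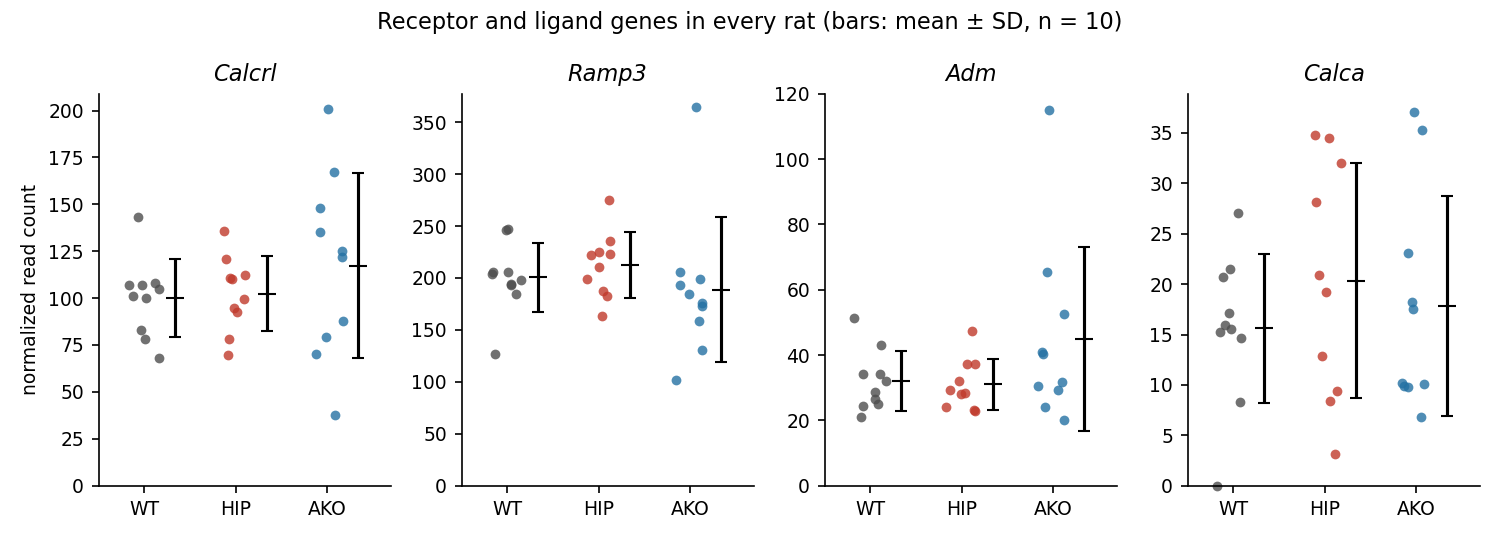
Normalized read counts of Calcrl, Ramp3, Adm and Calca in each of 30 rats, by group; points are rats and bars are the mean ± SD of 10 rats. The groups overlap for every gene, Ramp3 reaches 364 and Adm reaches 115 in single AKO rats, and Calca is at 0 in 1 WT rat.

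Among the receptor subunits, Calcrl had 99.9 ± 20.7 normalized counts in WT rats, 102 ± 19.7 in HIP rats and 117 ± 49.2 in AKO rats (SD, n = 10 per group). WT rats ranged from 68.2 to 143.2 with a median of 103. HIP rats ranged from 69.8 to 135.7 with a median of 105. AKO rats ranged from 37.7 to 201 with a median of 124. The AKO rats thus held both the lowest rat of the study, 6KAH98, and the highest, 4KAH35, and 3 of 10 AKO rats were above the highest WT rat. The WT and HIP ranges lay almost on top of each other, with 5 of 10 HIP rats above the WT median.

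Ramp3 had 200.5 ± 33.5 normalized counts in WT rats, 212 ± 31.7 in HIP rats and 189 ± 69.6 in AKO rats (SD, n = 10 per group). WT rats ranged from 126 to 247 with a median of 201, and HIP rats from 163 to 275 with a median of 216. AKO rats ranged from 102 to 364 with a median of 180. The highest value was in AKO rat 6KAH98, the rat lowest in Calcrl, and without it the other 9 AKO rats had 169 ± 33.98 (SD) and did not exceed 206. Of the HIP rats, 9 of 10 were above the AKO median.

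Of the ligand genes, Adm, which encodes the vasodilator adrenomedullin, had 32.1 ± 9.29 normalized counts in WT rats, 31.0 ± 7.73 in HIP rats and 45.02 ± 28.1 in AKO rats (SD, n = 10 per group). WT rats ranged from 21.0 to 51.3 with a median of 30.4, HIP rats from 22.97 to 47.5 with a median of 28.9, and AKO rats from 20.2 to 115 with a median of 36.2. The AKO mean without 4KAH27 was 37.2 ± 14.4 (SD, n = 9). The 3 groups overlapped, with 7 of 10 AKO rats above the WT median.

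Calca had 15.6 ± 7.40 normalized counts in WT rats, 20.3 ± 11.7 in HIP rats and 17.8 ± 10.9 in AKO rats (SD, n = 10 per group). WT rats ranged from 0 to 27.1 with a median of 15.7, HIP rats from 3.16 to 34.8 with a median of 20.1, and AKO rats from 6.86 to 37.1 with a median of 13.9. The value of 0 was in WT rat 10RT43, and a count of 0 allows up to 3 reads, for counting error only. HIP rat 10RT52 had 3 estimated reads. Above the highest WT rat were 4 HIP rats and 2 AKO rats, and each group also held low rats.

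HIP and WT rats were compared for differences in these genes. Human amylin and the diabetes of HIP rats cannot be told apart in this comparison. The test was limma, two-sided, on log2(normalized count + 1), and fold changes are on that scale, which understates changes of low genes. Of the 4 genes, 0 had an unadjusted p under 0.05, and 2.57% of the 17085 genes tested did (439 genes). The permutation test also gave 0. Calcrl was 1.03-fold (95% interval 0.85 to 1.24, limma, p = 0.777) in HIP relative to WT rats and Ramp3 1.06-fold (0.91 to 1.24, p = 0.425). Adm was 0.98-fold (0.77 to 1.24, p = 0.833). The intervals of these 3 genes did not reach a change of 1.5-fold in either direction. The Calca interval did, at 1.34-fold (0.64 to 2.79, limma, p = 0.418). The Calca log2 difference was 0.42 with all rats, 0.0077 without WT rat 10RT43 and -0.072 without 10RT43 and 10RT46, and it was 1.41 with estimated reads as a covariate (limma, p = 0.0252). With limma's p-values adjusted by Benjamini-Hochberg over every gene tested, the adjusted p of all 4 members was 0.999, and 0% of all genes had an adjusted p under 0.05. With estimated reads as a covariate, 739 genes had an adjusted p under 0.05 (limma). Estimated reads had medians of 19.1 M in WT and 15.7 M in HIP rats, so this covariate and genotype cannot be fully told apart. WT rat 10RT43, at 0 for Calca, also had the fewest estimated reads of the WT rats, 12.9 M.

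AKO and WT rats were compared in the same way. All AKO rats have KAH or AKO names, and all WT and HIP rats have RT names. Genotype and what these names stand for cannot be told apart. Again 0 of the 4 genes had an unadjusted p under 0.05 by limma and 0 by the permutation test, against 9.34% of 17058 genes tested (1594 genes, limma). Adm was 1.26-fold (95% interval 0.88 to 1.82, limma, p = 0.194), Calca 1.24-fold (0.63 to 2.44, p = 0.525), Calcrl 1.09-fold (0.78 to 1.52, p = 0.608) and Ramp3 0.91-fold (0.71 to 1.15, p = 0.405). The Ramp3 interval did not reach 1.5-fold in either direction, and the other 3 did. The adjusted p-values (limma, Benjamini-Hochberg) ranged from 0.666 to 0.877 for the members, and 0.0997% of all genes had one under 0.05, 17 genes, or 857 with sample-quality weights. The Calca log2 difference of 0.31 was -0.11 without WT rat 10RT43.

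The Adm difference was also computed by the names of the AKO rats. The labels name 4 AKO rats with KAH and 6 with AKO, without saying what the names mean. The KAH-named rats gave a log2 difference from WT of 0.73 (limma, p = 0.0328), and the AKO-named rats 0.080 (p = 0.737). Whether these values differ was not tested. Without 4KAH27 and 4KAH35, both KAH-named and both high in blood markers, the difference was 0.10 (limma, p = 0.645), against 0.34 with all AKO rats and 0.17 without 4KAH27 alone (p = 0.425). The part of blood or of the naming in the Adm values was not tested.

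The 3 comparisons share rats and are not independent of each other. Between HIP and AKO, 0 of the 4 genes had an unadjusted p under 0.05 by limma and 0 by the permutation test, against 12.7% of 17092 genes (2179 genes, limma). Ramp3 was 1.17-fold in HIP relative to AKO (95% interval 0.94 to 1.47, limma, p = 0.159), Calcrl 0.94-fold (0.68 to 1.31, p = 0.718), Adm 0.77-fold (0.54 to 1.10, p = 0.139) and Calca 1.08-fold (0.62 to 1.88, p = 0.765). The intervals of Ramp3 and Calcrl did not reach 1.5-fold in either direction. The adjusted p-values (limma, Benjamini-Hochberg) ranged from 0.534 to 0.912 for the members, and 0.17% of all genes had one under 0.05, 29 genes, or 1143 with sample-quality weights. The Ramp3 result changed with AKO rat 6KAH98 and with other choices. Without 6KAH98 the log2 difference of 0.23 became 0.34 (limma, p = 0.0114), with 6 AKO-named rats alone 0.31 (p = 0.0406) and with sample-quality weights 0.25 (p = 0.0265). The Adm log2 difference of -0.37 became -0.76 with the KAH-named rats alone (limma, p = 0.0192) and -0.57 with estimated reads as a covariate (p = 0.0192).

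**Figure D2:**
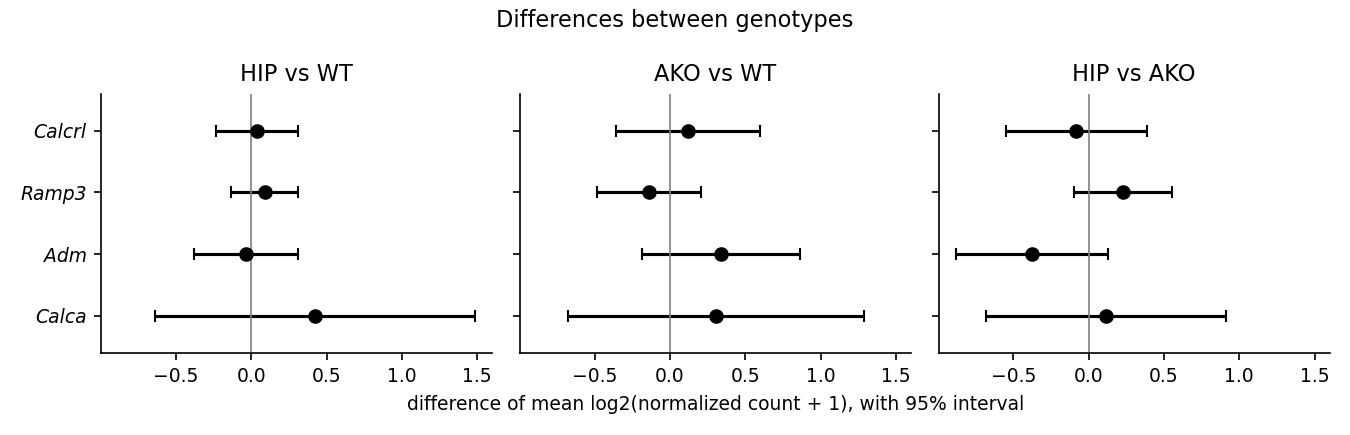
Difference of mean log2(normalized count + 1) for each gene in the 3 comparisons, with limma's 95% interval. All 12 intervals cross 0, and those of Calca are the widest.

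Calcrl and Ramp3 were then set against each other in each rat, a comparison chosen after the values were seen. AKO rat 6KAH98 had 37.7 normalized counts of Calcrl and 364 of Ramp3. AKO rat 4KAH35 had 201 and 130, and AKO rat 6AKO35 had 167 and 102. The rat with the lowest Calcrl thus had the highest Ramp3, and the rats with the highest Calcrl were among the lowest in Ramp3. With each value centred on its group mean, Pearson's r was -0.71 (permutation p = 4e-05) and Spearman's rho was -0.56 (permutation p = 0.0015) over 30 rats. With Benjamini-Hochberg adjustment over 14 relations, which were the 6 pairs of members and each member with 2 further gene groups, these permutation p-values were 0.000112 and 0.0042. Without 4KAH35 and 6KAH98, the rats farthest from the median of Calcrl, r was -0.47. Without 10RT43 and 10RT46 it was -0.73. Within groups of 10 rats, r was -0.14 in WT (permutation p = 0.687), -0.66 in HIP (p = 0.0369) and -0.86 in AKO (p = 0.00158), or 0.687, 0.0474 and 0.00356 when these permutation p-values were adjusted over 9 relations within groups. The other 5 pairs of members had adjusted permutation p-values of at least 0.271, with r between -0.22 and 0.26.

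**Figure D3:**
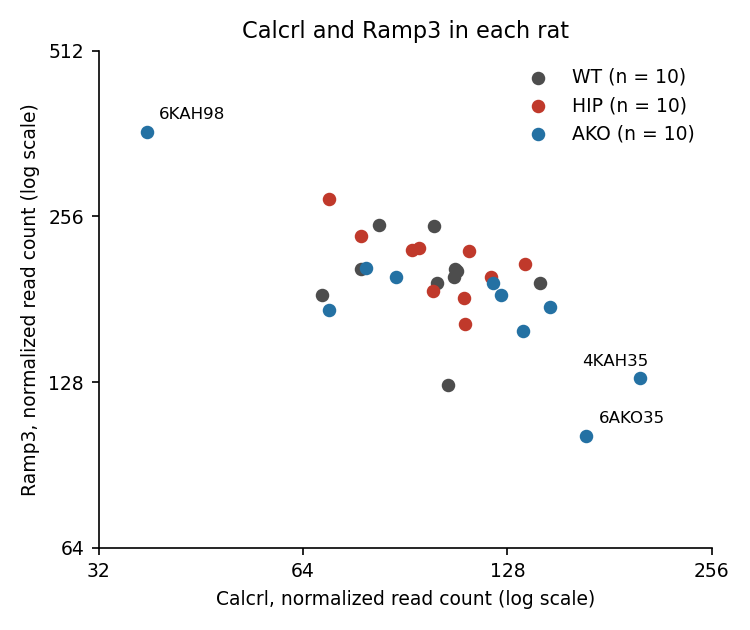
Ramp3 against Calcrl in each of 30 rats, both as normalized read counts on log scales, coloured by group. AKO rats 6KAH98, 4KAH35 and 6AKO35 lie at the ends. With group means removed, r is -0.71 over 30 rats, and within groups it is -0.14 in WT, -0.66 in HIP and -0.86 in AKO.

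The order of the rats in Calcrl and Ramp3 also moved with other gene groups, chosen after the values were seen. The Nduf genes, 45 genes that encode subunits and assembly factors of respiratory complex I, were high in the rats with high Ramp3. Their mean log2 value ranged from 9.47 in 6AKO35 to 10.3 in 6KAH98. Over 30 rats, centred on group means, r with this mean was 0.88 for Ramp3 and -0.84 for Calcrl (permutation p = 1e-05 for each, the smallest that 100000 resamples can give; adjusted 3.5e-05), and Spearman's rho was 0.79 and -0.74. Without the 2 farthest rats, 10RT46 and 6KAH98, r was 0.78 for Ramp3 and -0.67 for Calcrl. The 70 genes of mitochondrial ribosomal proteins gave r of 0.87 for Ramp3 and -0.82 for Calcrl (adjusted permutation p = 3.5e-05 for each). Within each group, r of the Nduf mean with Ramp3 was 0.77 in WT, 0.91 in HIP and 0.91 in AKO, and r with Calcrl was -0.62, -0.74 and -0.90. After regression of both genes on the Nduf mean, r between Calcrl and Ramp3 was 0.10 (permutation p = 0.595), while r of Calca was 0.44 with Ramp3 and 0.40 with Calcrl (permutation p = 0.0155 and 0.0293, each 0.0879 adjusted over the 6 pairs). Adm and Calca did not follow this mean beyond the permutation spread (r of -0.28 and -0.053, adjusted p of at least 0.271).

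The olfactory bulb markers moved with both receptor genes as well. The rats high in these markers included 6AKO35 and 10RT50, the lowest in Ramp3, and 4KAH35, the highest in Calcrl. Over 30 rats, centred on group means, r with the bulb list mean was 0.47 for Calcrl (rho = 0.51, permutation p = 0.00847 and 0.00438) and -0.48 for Ramp3 (rho = -0.33, permutation p = 0.00587 and 0.0754). Adjusted over the 4 members, the permutation p of r was 0.0169 for each, and that of rho was 0.0175 for Calcrl and 0.151 for Ramp3. Without 10RT50 and 10RT51, the farthest rats, r was 0.44 and -0.41. The bulb and Nduf means had r of -0.39 with each other (rho = -0.32, permutation p = 0.0294 and 0.0813). AKO rat 6KAH98, at the other end of Calcrl and Ramp3, had a bulb mean of 5.39. With the bulb mean as a covariate, 0 of the 4 members had an unadjusted p under 0.05 in any comparison (limma). Of all genes, 3.35% did in HIP vs. WT, 10.0% in AKO vs. WT and 13.9% in HIP vs. AKO rats.

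**Figure D4:**
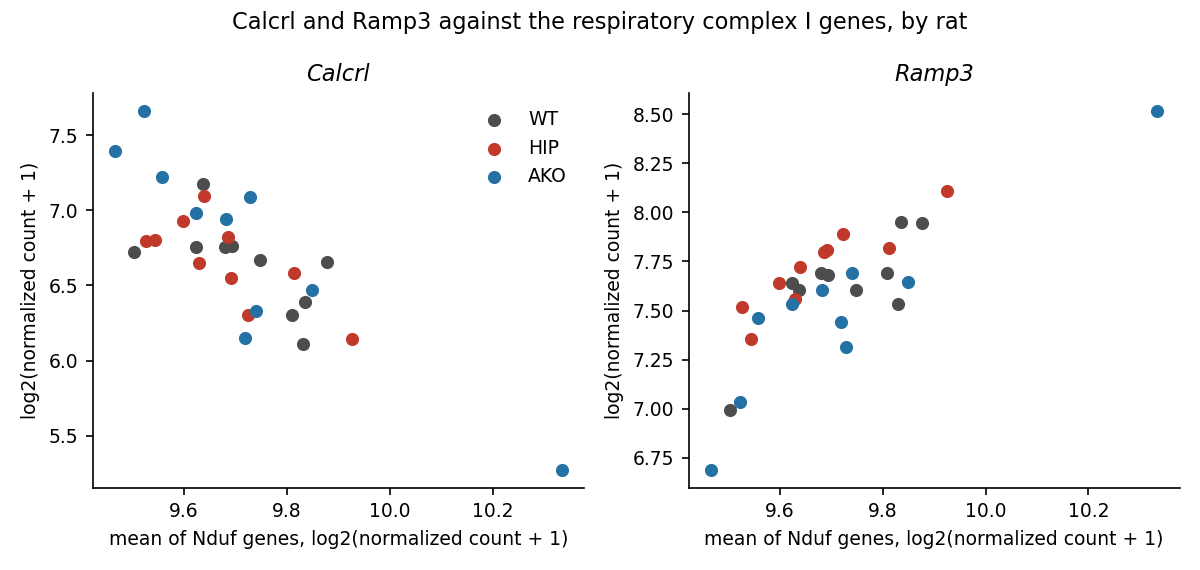
Calcrl and Ramp3, as log2(normalized count + 1), against the mean of 45 Nduf genes on the same scale, in each of 30 rats, coloured by group. Calcrl falls (r = -0.84) and Ramp3 rises (r = 0.88) along the axis, and AKO rat 6KAH98 lies at the right end at 10.3.

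With the Nduf mean as a covariate, an alternative also chosen after the values were seen, Ramp3 was higher in HIP than in AKO rats by 0.31 on the log2 scale (limma, unadjusted p = 0.00092, adjusted p = 0.0687). It was higher in HIP than in WT rats by 0.16 (limma, unadjusted p = 0.0291, adjusted p = 0.999), and its difference between AKO and WT rats was -0.14 (p = 0.14). The Calcrl differences in that fit were -0.19 in HIP vs. AKO (limma, p = 0.135), 0.12 in AKO vs. WT (p = 0.383) and -0.039 in HIP vs. WT (p = 0.714). What sets this order of rats was not tested.

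The members were also set against marker lists of the cell types and regions that could hold them. In 24 relations of 4 members with 6 lists, 0 passed Benjamini-Hochberg adjustment (smallest adjusted permutation p = 0.188), and 3 had an unadjusted permutation p under 0.05 for r. Calcrl had r of 0.41 with the endothelium list, 10 genes such as Pecam1 and Cdh5 (rho = 0.28, permutation p = 0.0235 and 0.13, adjusted 0.188). It had r of 0.44 with the list of smooth muscle and pericytes (rho = 0.37, permutation p = 0.0148 and 0.0455, adjusted 0.188), and without the 2 farthest rats r was 0.37 and 0.27. Calca had r of 0.64 with the neocortical layer list (rho = 0.16, permutation p = 0.0157 and 0.389), which was -0.18 without 10RT43 and 10RT46. That relation rested on these rats. Ramp3 and Adm had r between -0.18 and 0.18 with all 6 lists over 30 rats. The choroid plexus values turned on the rats that stood apart. Without 10RT46 and 7AKO19, r with that list was -0.40 for Ramp3 and 0.27 for Calcrl. Without 10RT43 and 10RT46, r was 0.39 for Calcrl (rho = 0.52, permutation p = 0.0486 and 0.00521, adjusted 0.233 and 0.125) and 0.49 for Calca (permutation p = 0.00887, adjusted 0.213).

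**Figure D5:**
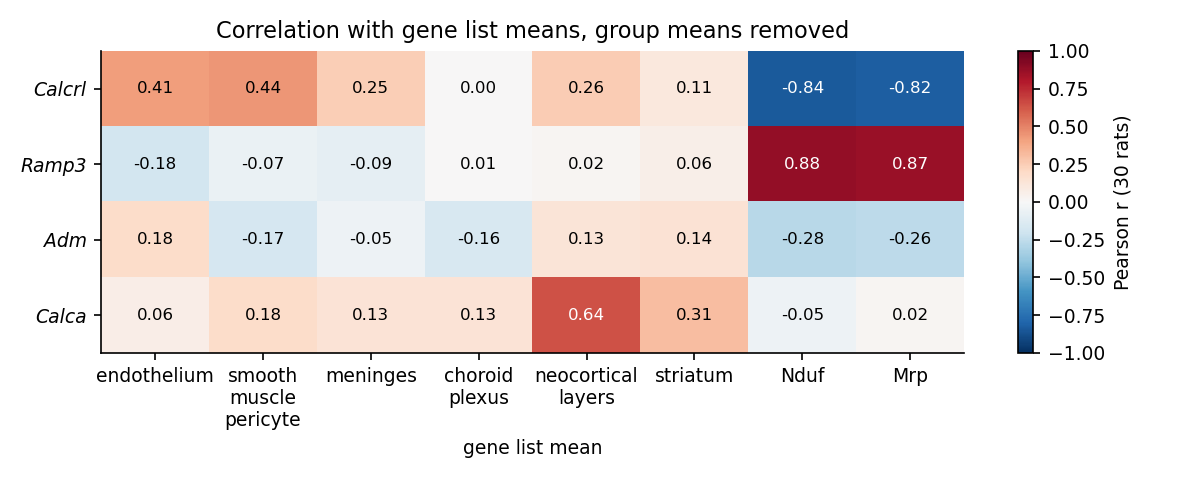
Pearson r, over 30 rats and with group means removed, of each member with the mean log2 value of 6 marker lists and of the Nduf and Mrp genes (mitochondrial ribosomal proteins). The colour scale runs from -1 to 1; the strongest values are those of Ramp3 and Calcrl with the Nduf and Mrp genes.

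The genes whose order over the 30 rats was most like that of a member were taken from 13708 genes, by Spearman's rho without centring. For Calcrl they were Fam120a (rho = 0.87), Ntrk2, the receptor of brain-derived neurotrophic factor (0.86), and Cntn5, a neuronal adhesion molecule (0.86). For Ramp3 they were Ociad1 (0.85), Mcts1 (0.83) and Babam2 (0.82). All 3 were highest in AKO rat 6KAH98. For Calca they were Prkag2, a subunit of AMP-activated kinase (0.72), Ldb2 (0.67) and St6galnac5 (0.67), of which Ldb2 and St6galnac5 were lowest in WT rat 10RT43. For Adm they were Osmr, which encodes the oncostatin M receptor (0.80), Lonrf3 (0.71) and Six2 (0.70). Over the 28 rats without 10RT43 and 10RT46, rho was between 0.61 and 0.84 for these 12 genes.

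AKO rat 4KAH27 was highest in Adm, Osmr and Lonrf3. It had 399 normalized counts of Osmr, against 19.2 to 58.9 in the other 29 rats. Hmox1, which encodes the haem-degrading enzyme heme oxygenase 1, was at 1040.0 and at most 154.8 in the others. S100a9, a neutrophil gene of the blood list, was at 197 in that rat, at 94.8 in 4KAH35 and at a median of 6.51 over all rats. Hba-a2, of the same list, had the opposite order, at 16021 in 4KAH27 and 40576 in 4KAH35, with a median of 6669 over all rats. Hmox1 was chosen after its values were seen. 4KAH35, the other rat high in blood markers, had 43.4 normalized counts of Osmr and 52.5 of Adm. 4KAH27 had the lowest means of all 30 rats over meninges (6.51), smooth muscle and pericyte (7.68) and astrocyte (11.3) markers. Its striatum mean, 10.2, was the highest of the AKO rats, and its estimated reads, 12.9 M, were the fewest of all rats. The parts of blood, of these other markers and of depth in the Adm value of 4KAH27 were not tested.

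The other genes of the pathway were taken from 7 lists, which hold the remaining ligands, peptide processing and degradation, receptor partners, the Gs and cAMP cascade, nitric oxide signalling and other class B receptors. Of 47 genes listed, 40 were in the table. In HIP vs. WT rats, 0 of 40 tested had an unadjusted p under 0.05 (limma), beside 2.57% of all genes. Their median log2 difference was 0.049, and that of all genes was 0.0018. In AKO vs. WT rats, 0 were higher and 2 were lower at that threshold, 5.0% beside 9.34% of all genes. In HIP vs. AKO rats, 4 of 39 were higher and 1 was lower, 12.8% beside 12.7% of all genes. None of these had an adjusted p under 0.05 (limma, Benjamini-Hochberg).

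Adcy1, a calcium-stimulated adenylyl cyclase that makes cAMP, had 19522 ± 7572 normalized counts in WT rats, 18889 ± 5112 in HIP rats and 13652 ± 4116 in AKO rats (SD, n = 10 per group). It was lower in AKO than in WT rats by 0.47 on the log2 scale (limma, unadjusted p = 0.0371, adjusted p = 0.499) and higher in HIP than in AKO rats by 0.47 (p = 0.0103, adjusted p = 0.263). Crhr1, the corticotropin-releasing hormone receptor, had 502 ± 236 normalized counts in WT rats and 357 ± 111 in AKO rats (SD, n = 10 per group, limma, unadjusted p = 0.0264, adjusted p = 0.464). Its medians were 426 in WT and 320 in AKO rats, and the highest WT rat was at 1162. In HIP vs. AKO rats, the share of pathway genes with an unadjusted p under 0.05, 12.8%, was near the 12.7% of all genes. Among them were 2 subunits of soluble guanylyl cyclase, the nitric oxide receptor. Gucy1a1 was higher in HIP rats by 0.27 (limma, unadjusted p = 0.0247, adjusted p = 0.324) and Gucy1b1 by 0.23 (p = 0.0165, adjusted p = 0.294). Prkar2b, a regulatory subunit of protein kinase A, was higher in HIP rats by 0.19 (limma, unadjusted p = 0.0137, adjusted p = 0.279), and Adcy5 was lower by 0.28 (p = 0.0499, adjusted p = 0.391). Adm2, the ligand gene next to Adm in this family, had a median of 0 normalized counts in WT rats, 1.06 in HIP rats and 0.41 in AKO rats, near the detection limit.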

How the data were processed

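RNA was sequenced on a HiSeq instrument, and per the labels reads were processed in Partek 10.0.22.0228 with STAR 2.7.8a and Bowtie2 against rn7. The authors normalized read counts per gene with DESeq2, and the deposited signal values are these normalized counts, which are not whole. In each rat, 80.4% to 84.1% of values below 100 were within 0.01 reads of whole multiples of 1 step, taken as 1 read, so no count test was run. The members and gene lists were chosen with earlier results of these data known. Groups came from the genotype label, and separate rats were taken as replicates. limma 3.58.1 (R 4.3.3, variance trend) tested log2(normalized count + 1) over genes that averaged at least 1 normalized count in the rats compared, with thresholds of 0.05 for unadjusted and for adjusted p-values. Permutation tests used 100000 resamples (Python 3.11.15, numpy 2.4.6). Genes named were the members, the 3 genes most like each member in order over rats (mean of at least 10), and pathway genes with an unadjusted p under 0.05, at most 5 per comparison. The alternatives were other pseudocounts (0.1, 5), filters, scalings, weights and covariates, all rats in one fit, and rats left out.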

Additional observations from a re-analysis of the deposited data

Results flagged for a closer look

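In each group the gap between 1 rat and the nearest other rat was divided by the range of the group. In 4 of 12 groups examined (4 genes in 3 groups of 10 rats), this ratio exceeded the 95% critical value of Dixon's test. Chance exceeds it in about 1 in 20 groups where values are independent and normally distributed. The ratio was taken on normalized counts, not on their log2 values, and Calcrl and Ramp3 varied in opposite directions over the same rats (r = -0.71). The 4 of 12 therefore cannot be set against that rate. Ramp3 was at 364 normalized counts in AKO rat 6KAH98, against 102 to 206 in the other 9 AKO rats. Adm was at 115 in AKO rat 4KAH27, against 20.2 to 65.4 in the other 9. Ramp3 was at 126 in WT rat 10RT50, with the rest of the WT rats between 184 and 247, and it also had the lowest Nduf mean of the WT rats, 9.50 on the log2 scale, and an olfactory bulb mean of 9.66. Calcrl was at 143.2 in WT rat 10RT51, against 68.2 to 108 in the other 9, and its olfactory bulb mean was the highest of the WT rats, 9.88, where the WT median was 4.22. Without 6KAH98, the Ramp3 difference between HIP and AKO rats had an unadjusted p of 0.0114 (limma).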

How the results depend on the processing

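Each of the 12 differences (4 genes, 3 comparisons) was recomputed under up to 41 alternatives, 480 values in all. Of these, 455 kept their sign, 25 reversed it and 9 had an unadjusted p under 0.05 (limma). No paired analysis was possible because the labels give no pairing of rats between groups. The causes of the changes were not tested, and depth limits Calca most, with 0 to 35 estimated reads per rat.

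The number of members with an unadjusted p under 0.05, 0 with the settings of the report, became 1 as follows. In HIP vs. WT it was 1 with estimated reads (Calca) and with the Nduf mean (Ramp3) as a covariate, beside 24.0% and 3.06% of all genes. In AKO vs. WT it was 1 with the KAH-named AKO rats alone (Adm), beside 10.5% of all genes. In HIP vs. AKO it was 1 with sample-quality weights, the Nduf mean or the AKO-named rats alone (Ramp3). The shares of all genes there were 25.1%, 16.8% and 11.2%. It was also 1 with estimated reads or the KAH-named rats alone (Adm), beside 14.5% and 13.6% of all genes. With single rats left out it was 0 to 1 (Ramp3, without 6KAH98, beside 11.6% of all genes).

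The number of all genes with an unadjusted p under 0.05 in HIP vs. WT, 439, was 885 with sample-quality weights, 1154 with the striatum list and 4104 with estimated reads as a covariate. It was 817 without 10RT43 and 10RT46, 840 without these and HIP 10RT48, and 309 to 779 with single rats left out, the highest without 10RT46. In AKO vs. WT, 1594 became 3930 with sample-quality weights and 2526 with the Nduf mean. In HIP vs. AKO, 2179 became 4289 with sample-quality weights. With an adjusted p under 0.05, the 0 genes of HIP vs. WT became 739 with estimated reads as a covariate, which differed between these groups. The 17 of AKO vs. WT became 857 and the 29 of HIP vs. AKO became 1143 with sample-quality weights, and 44 in AKO vs. WT with the Nduf mean.

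Signs reversed in small differences, given here on the log2 scale. With sample-quality weights, Adm was 0.094 and Calca -0.082 in HIP vs. WT, and Calca -0.10 in HIP vs. AKO. With the endothelium list as a covariate, Calcrl was -0.0039 in AKO vs. WT and 0.094 in HIP vs. AKO. With the KAH-named rats alone, Calcrl was -0.055 in AKO vs. WT and 0.093 in HIP vs. AKO. With estimated reads as a covariate, Calca was -0.016 in HIP vs. AKO, and with the Nduf mean, Calcrl was -0.039 in HIP vs. WT. Without 10RT43 and 10RT46, Calca was -0.072 in HIP vs. WT and -0.11 in AKO vs. WT. Without these and 12RT23, a choice made after the data were seen, it was -0.21, -0.11 and, in HIP vs. AKO, -0.10. Without 10RT43, 10RT46, 10RT48 and 7AKO19, Calca was -0.24 in AKO vs. WT and Calcrl was 0.0062 in HIP vs. AKO. With single rats left out, HIP vs. WT ranged from -0.020 to 0.098 for Calcrl and from -0.11 to 0.044 for Adm. Calca ranged from -0.11 to 0.43 in AKO vs. WT and from -0.0011 to 0.35 in HIP vs. AKO, and Calcrl from -0.25 to 0.018 in HIP vs. AKO.

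Of the 24 relations with marker lists, 0 passed adjustment under either alternative. Without 10RT43 and 10RT46, r changed sign for Calcrl with striatum (-0.0091), Ramp3 with the neocortical layers (-0.053) and choroid plexus (-0.26), and Adm with meninges (0.0056) and the neocortical layers (-0.029). It also did so for Calca with endothelium (-0.23), smooth muscle and pericytes (-0.071) and the neocortical layers (-0.18). With a pseudocount of 5 it did so for Calcrl with choroid plexus (-0.035) and Calca with endothelium (-0.015). After regression on the Nduf mean, r was 0.10 for Calcrl with Ramp3, -0.26 for Calcrl with Adm and 0.058 for Ramp3 with Adm. It was 0.44 for Ramp3 with Calca, against 0.16 before, and 0.40 for Calcrl with Calca, against 0.26 before. The number of members that moved with the olfactory bulb list at an adjusted p under 0.05 for r, 2, was 2 under both alternatives.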
